A study of Mus musculus with 6 samples.

Results

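Foxj1, Rfx1, Rfx2, Rfx3, Rfx5, Rfx7 and E2f4 encode transcription factors of the ciliary programme, the set of genes that a cell switches on to build cilia. They were found by symbol among the gene identifiers of the count table, and all 7 had a row of their own among 32061 genes. Poly-A RNA-seq covered 6 libraries from mouse biliary epithelial cells, the lining cells of the bile ducts, passaged 4 to 5 times as organoids before being grown flat on collagen. The 3 cilia-competent samples were cultured without 4OHT (4-hydroxytamoxifen), which activates tamoxifen-dependent Cre recombinase. The 3 cilia-depleted samples were cultured with it, and their columns are named KO where the competent ones are named WT. The deleted gene, the Cre driver and the strain, sex and age of the mice are not named in the labels. Since all 3 depleted samples and no competent sample had 4OHT, drug exposure and cilium loss cannot be told apart. Whether replicates are separate cultures or animals is not stated, and the p-values therefore reflect the spread among these 6 samples, part of which may be technical.

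RFX proteins share a winged-helix DNA-binding domain and bind the X-box, a promoter element found in front of many genes for intraflagellar transport, the basal body and the transition zone of the cilium. RFX1, RFX2 and RFX3 act on ciliary genes in both primary and motile cilia, RFX5 is known above all as the DNA-binding subunit of the complex that drives MHC class II genes, and RFX7 has been linked to growth-restraining genes of the p53 response. FOXJ1 is the forkhead factor that directs the motile-cilium programme, and bile duct cells, which carry a single primary cilium, are not usually counted among multiciliated cells. E2F4 represses cell cycle genes together with pocket proteins and also takes part in centriole amplification in multiciliated cells.

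An arm of the X-box, GTTGCC (read on both strands, GGCAAC on the other), was searched for in 300-base RefSeq promoter windows of GRCm38.p6, which lie mostly before a gene's start and end shortly after it. Windows were matched by symbol for 5 of the 7 genes, all but Foxj1 and E2f4. The arm was found in the windows of Rfx1, Rfx2 and Rfx3 and in neither of those of Rfx5 and Rfx7. Across all genes with a window, 3820 of 27018 (14.1%) held it. The matches are shown because these 3 genes, the RFX factors most tied to cilia, carry the letters that RFX proteins themselves bind. Capitals mark the arm, each line has 30 bases on the gene's own strand, and numbers are counted from the start, with no base 0.
Rfx1 (chr8:84066825-84066854, plus strand, arm at 2 to 7): tgggtagcaacaGTTGCCccggtgagggaa
Rfx2 (chr17:56831107-56831136, minus strand, arm at -116 to -111): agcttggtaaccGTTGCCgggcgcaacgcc
Rfx3 (chr19:28011118-28011147, minus strand, arm at 32 to 37): gttatagcaaccGTTGCCttgtgaatcaag

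The Rfx1 and Rfx3 matches stood in a longer run, with GCAAC and 1 further base directly before the arm, which was noticed in these windows first and then counted. It occurred in 10 of 27018 genes (0.037%). The arm was also frequent among ciliary genes, with 16 of 30 primary-cilium genes (53.3%) and 24 of 43 motile-cilium genes (55.8%). Among genes described as RFX7 targets it was found in 1 of 12 and among cell cycle genes repressed by E2F4 in 1 of 15. A match describes the sequence and does not show that a factor is bound there.

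**Figure D1:**
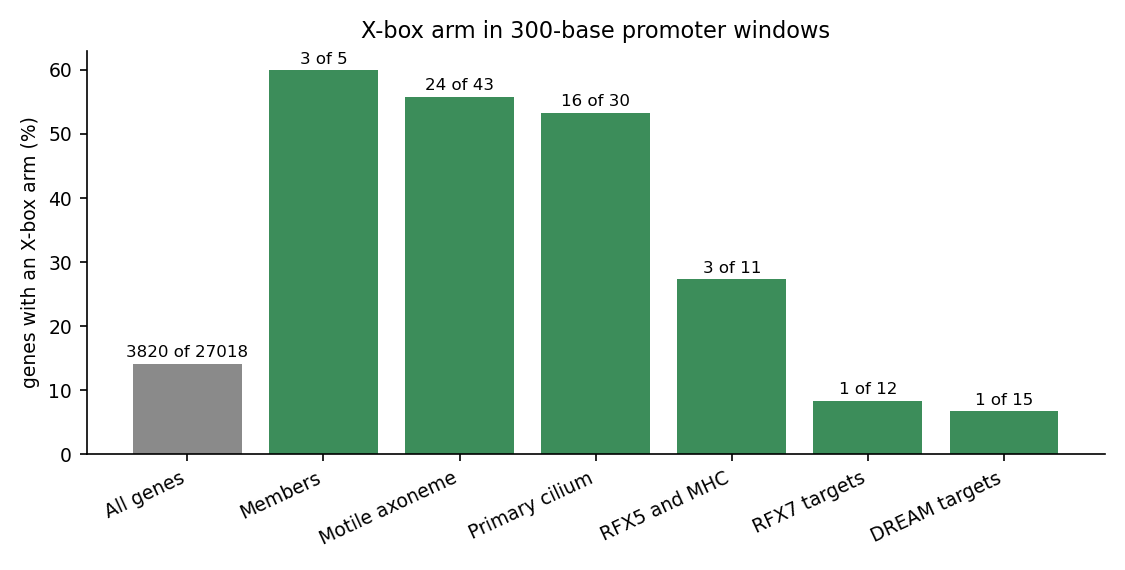
Bars give the percentage of genes, on a linear axis from 0, whose 300-base promoter window holds the X-box arm on either strand, with the counts above each bar. The members and both ciliary lists stand at 53.3% to 60%, against 14.1% of all genes with a window.

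Total counts were 26293486 to 36998935 per sample, and 3 counts corresponded to 0.0811 to 0.114 CPM, the count scaled to library size. Changes were tested with edgeR's quasi-likelihood test, p-values of the 13839 genes that passed its count filter were adjusted together (Benjamini-Hochberg), and a gene was called below 0.05. The comparison was broad, since 69.2% of genes tested were called, 34.9% higher and 34.3% lower in depleted cells. CPM values are scaled by TMM, which corrects library size for composition. Under library size alone the median log2 change over all genes moved from -0.0057 to -0.13, and 39.1% of calls were higher in place of 50.5%. All 12 biliary markers were tested, and their summed level was 8250 to 8560 CPM in competent and 6534 to 6666 CPM in depleted samples. Krt7 was high at 3150 ± 67.7 CPM in competent cells while Krt19 stood at 12.5 ± 1.13 CPM (SD, n = 3). Ptprc, Adgre1, Cdh5, Kdr, Col1a2, Col3a1 and Cyp3a11, which define leukocytes, macrophages, endothelium, mesenchyme and hepatocytes, had 0 to 17 counts per group. Other markers were expressed: Hnf4a, of the hepatocyte list, had 203 and 227 CPM and Ttr 16.0 and 11.3 CPM in competent and depleted cells, Csf1r 47.2 and 43.2 CPM, Cd68 3.42 and 5.41 CPM (adjusted p = 0.000457) and Col1a1 1.38 and 3.04 CPM (adjusted p = 7.37e-05). Their part in the changes of the 7 factors was not tested. Wdr35, taken as the deleted gene from knowledge of the study and not from the labels, had 33.3 ± 1.98 CPM in competent and 28.0 ± 1.6 CPM in depleted cells, and whole-gene counts cannot show the loss of single exons.

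Of the 7 factors, 6 were called higher in depleted cells and E2f4 lower. Of all genes tested, 34.9% were called higher and 34.3% lower. Rfx3 rose most, 3.34-fold, followed by Rfx2 (1.94-fold), Rfx1 (1.90-fold), Foxj1 (1.62-fold), Rfx5 (1.58-fold) and Rfx7 (1.40-fold), while E2f4 was lower by a log2 change of -0.22. The depleted and competent samples did not overlap for any of the 7, which held for 72.5% of genes tested. The median log2 change of the 7 was 0.70, against -0.0057 over all genes. A change of at least 2-fold was seen for Rfx3 alone among them, and for 9.87% of genes tested. In bulk RNA a change in the share of cells that express a gene and a change in RNA per cell cannot be told apart.

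Foxj1 (ENSMUSG00000034227; GRCm38 chromosome 11, 116330704 to 116335399, minus strand, 3 exons) was the most abundant member. Its level was 193, 170 and 186 CPM in the competent samples and 305, 288 and 298 CPM in the depleted samples. Every depleted sample was above every competent sample, and the closest pair differed by more than the spread within either group. The means were 183 ± 11.5 and 297 ± 8.58 CPM (SD, n = 3 each), a log2 change of 0.70 (95% interval 0.59 to 0.81, adjusted p = 4.21e-08). Among genes tested, 86% had a lower log2 change than Foxj1.

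Rfx3 (ENSMUSG00000040929; chromosome 19, 27761721 to 28011166, minus strand, 18 exons), whose product is required for normal nodal and ependymal cilia in mice, had the lowest level of the 7 in competent cells and the largest change. Its raw counts were 152, 174 and 189 in competent and 416, 553 and 516 in depleted samples. Scaled, these were 4.46, 4.92 and 5.02 CPM against 16.5, 17.2 and 14.6 CPM. The 3 depleted samples lay close together and far above the competent ones. The log2 change was 1.74 (95% interval 1.53 to 1.95, adjusted p = 3.17e-09), higher than that of 98.1% of genes tested.

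Rfx2 (ENSMUSG00000024206; chromosome 17, 56775897 to 56831013, minus strand, 17 exons), a close relative of Rfx3 that is needed for sperm flagella, varied most between samples. It had 8.81, 6.56 and 7.20 CPM in competent and 16.6, 14.0 and 13.4 CPM in depleted samples. Replicate 1 was the highest of its group on both sides, and the groups still lay apart. The log2 change was 0.96 (95% interval 0.71 to 1.21, adjusted p = 5.84e-06).

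Rfx1 (ENSMUSG00000031706; chromosome 8, 84066834 to 84096992, plus strand, 21 exons), the founding member of the family, had 25.7, 24.2 and 23.4 CPM in competent samples. The depleted samples had 47.1, 46.8 and 45.5 CPM and were close to each other. The log2 change was 0.93 (95% interval 0.82 to 1.04, adjusted p = 3.83e-09). The interval of Rfx1 lay within that of Rfx2, whereas that of Rfx3 starts above both.

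Rfx5 (ENSMUSG00000005774; chromosome 3, 94954075 to 94961561, plus strand, 10 exons) had 37.4, 39.7 and 37.8 CPM in competent samples against 66.8, 57.5 and 57.7 CPM in depleted samples, where replicate 1 stood above the other 2. The log2 change was 0.66 (95% interval 0.53 to 0.79, adjusted p = 4.97e-07). An opposite-strand gene overlaps 26.8% of its exon length and has no row among the genes counted. Since the strand setting of the counting is not given, whether its reads were counted under Rfx5 cannot be told. Rfx7 (ENSMUSG00000037674; chromosome 9, 72532240 to 72622937, plus strand, 9 exons) had 69.1, 74.4 and 75.9 CPM against 101, 106 and 99.3 CPM. This was the smallest of the 6 rises, with a log2 change of 0.49 (95% interval 0.38 to 0.59, adjusted p = 8.75e-07).

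E2f4 (ENSMUSG00000014859; chromosome 8, 105297663 to 105305370, plus strand, 10 exons) went the other way. Its level was nearly constant within each group, at 65.2, 65.8 and 64.8 CPM in competent and 54.6, 57.0 and 56.9 CPM in depleted samples. The log2 change was -0.22 (95% interval -0.31 to -0.12, adjusted p = 0.000548). With library size alone it was -0.34.

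**Figure D2:**
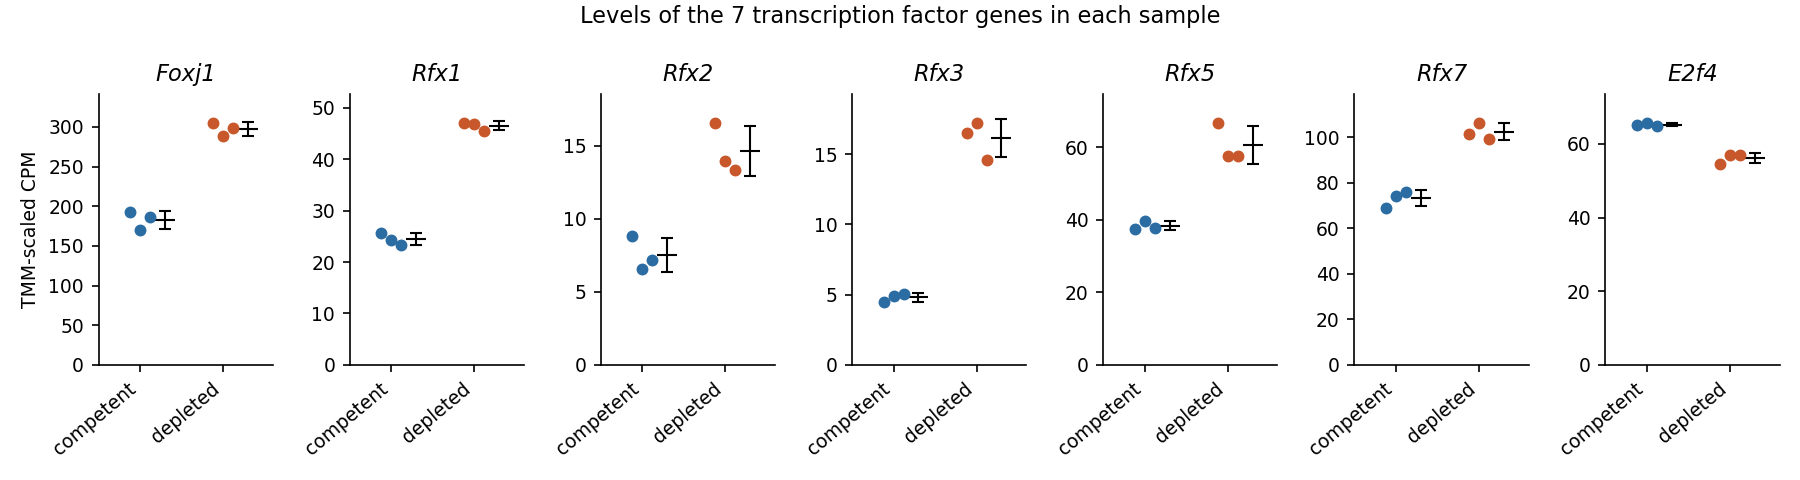
Each panel shows one gene, with TMM-scaled CPM on a linear axis from 0; points are single samples, and the bar beside them is the mean with the SD of 3 samples. Depleted samples lie above competent samples in the first 6 panels and below them for E2f4.

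Per kilobase of main transcript, a scale on which levels of different genes can be set side by side, the order was the same at the top and bottom in both groups. In competent cells Foxj1 had 69.7 ± 4.4 CPM per kb, E2f4 32.7 ± 0.256, Rfx7 9.15 ± 0.442, Rfx5 8.84 ± 0.287, Rfx1 5.86 ± 0.279, Rfx2 2.29 ± 0.352 and Rfx3 0.525 ± 0.0325 (SD, n = 3). Rfx7 and Rfx5 did not differ beyond their spread, and the other neighbours did. In depleted cells the values were 113 ± 3.27 for Foxj1, 28.2 ± 0.665 for E2f4, 14.0 ± 1.23 for Rfx5, 12.8 ± 0.458 for Rfx7, 11.1 ± 0.2 for Rfx1, 4.46 ± 0.522 for Rfx2 and 1.76 ± 0.148 for Rfx3. Rfx5 and Rfx7 again lay within their spread. Foxj1 was above 92% of genes tested on this scale in competent cells and Rfx3 above 11.3%.

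The share of each gene in the RFX messages was compared too. Of the summed CPM per kb of the 5 RFX genes, Rfx3 took 1.83%, 2.01% and 2.06% in competent samples and 3.89%, 4.29% and 3.77% in depleted samples. Rfx1 took 21.1% to 23.1% and then 24.4% to 25.8%, and Rfx7 took 32.5% to 35.7% and then 27.5% to 30.3%. For these 3 genes the groups did not overlap (exact two-sided permutation test, p = 0.1 each, the smallest p that 3 against 3 samples allow; 0.167 after Benjamini-Hochberg adjustment over 5 genes). The shares of Rfx2 and Rfx5 overlapped between groups (exact permutation p = 0.3 each). The other 3 family members were near absent, with 3 and 5 counts over the competent and depleted groups for Rfx4, 3 and 3 for Rfx6 and 1 and 1 for Rfx8.

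Transcript length moved with the comparison. Genes with a main transcript of 1047 to 1560 nt had a median log2 change of -0.31, and those of 6388 nt or more a median of 0.28. Rfx3 (9146 nt) and Rfx7 (7988 nt) lie in the longest decile of genes and E2f4 (1993 nt) in the third decile, whose median was -0.17. With the trend with length removed from each library, Rfx3 was at a log2 change of 1.45, Rfx2 at 0.87, Rfx1 at 0.79, Foxj1 at 0.68 and Rfx5 at 0.51. Rfx7 moved from 0.49 to 0.22 (adjusted p = 0.000105) and E2f4 from -0.22 to -0.12 (adjusted p = 0.0188), and all 7 remained called.

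**Figure D3:**
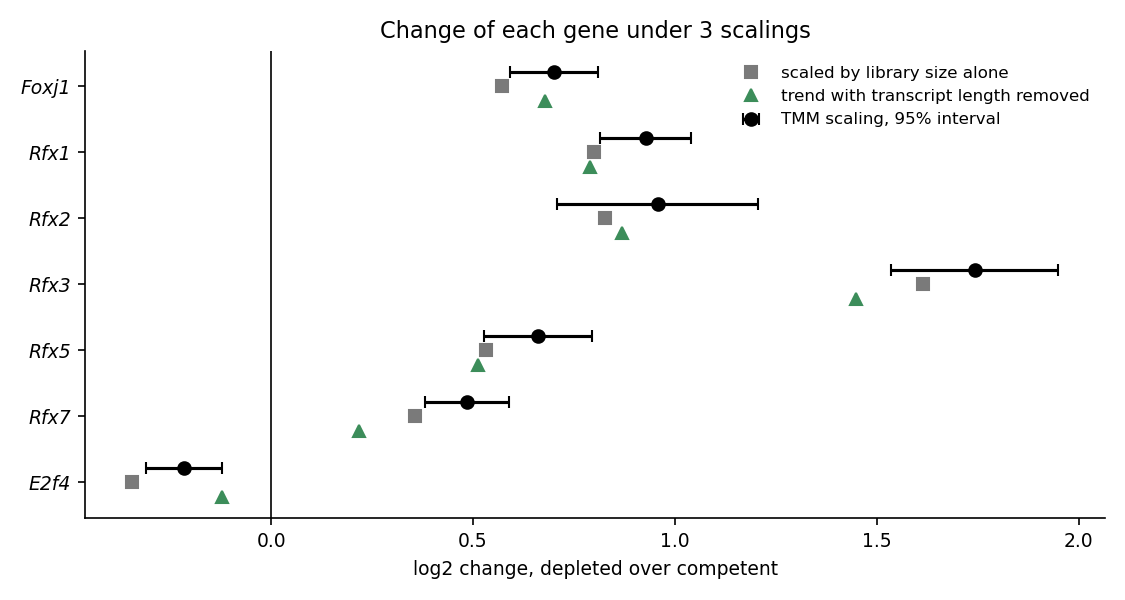
Points give the log2 change of each gene, depleted over competent, with TMM scaling (circles, 95% interval), library size alone (squares) and the length trend removed (triangles). The 6 genes to the right of 0 and E2f4 to its left keep their side under each scaling.

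**Figure D4:**
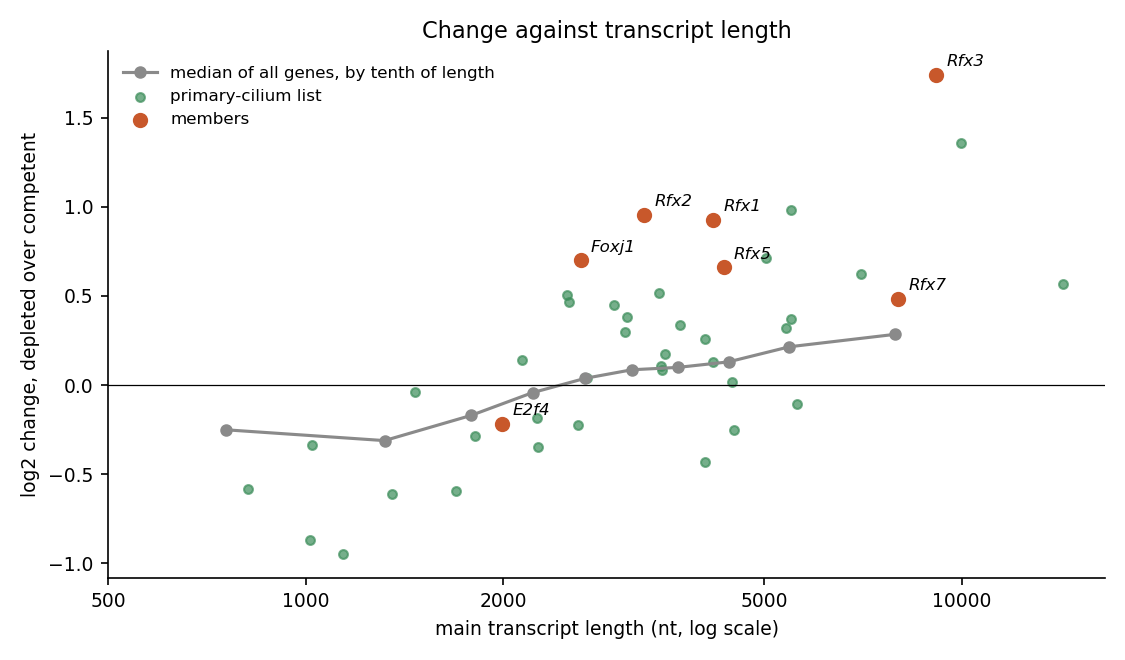
The log2 change is plotted against main transcript length on a log axis for the members, the primary-cilium list and, as a line, the median of each length decile of all genes. The line runs from -0.25 in the shortest decile, through -0.31 in the next, to 0.28 in the longest; 6 members lie above it, and E2f4 lies near it.

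Of 12 regulators of multiciliation and centriole amplification, 2 passed the filter on low counts, E2f5 and Plk4. Plk4, the kinase that starts centriole duplication, which cycling cells also use, had 21.8 ± 0.705 CPM in competent cells (log2 change -0.06, adjusted p = 0.396), and was called lower with library size alone (-0.19) and with the length trend removed (-0.16). Gmnc, which encodes the geminin-family protein that starts multiciliation, had 0 counts in all 6 samples, and Mcidas, its relative and target, had 2 counts, both in depleted replicate 3. Ccno, which is needed for centriole amplification, had 2, 3 and 4 counts in competent and 6, 6 and 15 in depleted samples. E2f5, which pairs with MCIDAS as E2F4 does, rose 1.21-fold, from 15.6 ± 0.873 to 18.9 ± 0.191 CPM (adjusted p = 0.00226), a call lost with library size alone (adjusted p = 0.0805). Of 10 markers of multiciliated cells, 3 were tested, with a median log2 change of 0.26, and Sntn was at 0. The summed level of the 10 was 10.9 to 11.8 CPM in competent and 7.28 to 8.36 CPM in depleted samples. Most of it was Cfap126, at 9.47 ± 0.442 and 5.20 ± 0.411 CPM, and each of the others had a mean of 1.13 CPM or less in either group.

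Motile-cilium genes, the main readout of FOXJ1 with RFX2 and RFX3, changed in both directions. Of 52 listed, 29 were tested, of which 6 rose, 6 fell and 17 were not called. Both shares are smaller than over all genes tested, where 34.9% rose and 34.3% fell, and several of the 17 had low counts. The median log2 change of the 29 was 0.04, against -0.0057 over all genes. It depended on the setting, at -0.09 with library size alone, -0.0076 with upper-quartile scaling, 0.12 with the length trend removed and 0.27 with no filter on low counts (50 genes). It was 0.20 without competent replicate 1, 0.21 without competent replicate 2, 0.13 without depleted replicate 1 and 0.14 without depleted replicate 3, and without depleted replicate 1 the number that rose was 9. Ccdc39, which encodes a ruler of the axoneme repeat, had 5.34, 5.40 and 5.20 CPM in competent and 11.1, 10.7 and 10.4 CPM in depleted samples, a 2.01-fold rise (adjusted p = 3.17e-07). Dnah7b, an inner-arm dynein heavy chain gene, rose 1.91-fold, although its near copies Dnah7a and Dnah7c can share reads. The outer-arm docking gene Ccdc114 rose with a log2 change of 0.91 and Kif27 with 0.67. Cfap43 rose too (log2 change 0.71, adjusted p = 0.0106), a call lost without depleted replicate 2 (adjusted p = 0.0552).

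Cfap126, also known as Flattop, had 9.98, 9.20 and 9.24 CPM in competent and 5.43, 5.46 and 4.73 CPM in depleted samples and fell 1.83-fold (adjusted p = 3.98e-06). Rsph1 and Rsph9, which encode radial spoke head proteins, fell 1.74-fold and 1.51-fold, Cfap52 fell by 0.79 on the log2 scale and Enkur by 0.62. The 6 genes that rose had a median transcript length of 4364 nt and the 6 that fell one of 1152 nt; the part of length in this division was not tested beyond the correction, under which 6 rose and 6 fell. The promoter windows of Dnah7b, which rose, and Enkur, which fell, both hold the X-box arm (in capitals).
Dnah7b (chr1:46066678-46066707, plus strand, arm at -163 to -158): tacaggagcacaGTTGCCacccacccttaa
Enkur (chr2:21205382-21205411, minus strand, arm at -34 to -29): gataaaagccagGTTGCCccgtctcctagc

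Primary-cilium genes commonly described as RFX-regulated were all expressed. Of 36, 17 rose, 12 fell and 7 were not called, with a median log2 change of 0.12 (-0.01 with library size alone and 0.04 with the length trend removed). Over all genes tested, 34.9% rose and 34.3% fell. Wdr35, taken above as the deleted gene, is in this list and is counted among the 12 that fell (log2 change -0.25). Alms1, a centrosome and basal body gene, rose most, from 7.93, 8.54 and 8.28 CPM to 20.7, 22.5 and 20.4 CPM, which is 2.57-fold (adjusted p = 2.76e-09). The transition zone genes Cc2d2a, Nphp4 and Rpgrip1l rose 1.97-fold, 1.64-fold and 1.54-fold. The dynein-2 heavy chain gene Dync2h1 rose (log2 change 0.57), a call lost with the length trend removed (0.20, adjusted p = 0.0559).

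Of the genes that fell, Ift20 and Ift27 changed most. Ift20, an intraflagellar transport gene, had 22.6, 23.0 and 23.7 CPM in competent and 11.4 to 12.6 CPM in depleted samples (1.93-fold lower, adjusted p = 2.81e-08), and Ift27 was 1.83-fold lower. Other intraflagellar transport genes rose, among them Ift81, Ift88 and Ift140, with log2 changes of 0.45, 0.38 and 0.37. Dync2li1, the dynein-2 light intermediate chain gene and a textbook RFX3 target, fell 1.53-fold from 45.1 ± 2.03 to 29.5 ± 0.86 CPM (adjusted p = 2.23e-07). Arl6 fell 1.51-fold and the transition zone gene B9d1 fell by 0.59 on the log2 scale. Genes that rose had a median transcript length of 4056 nt and genes that fell one of 1755 nt, and with the length trend removed 14 rose and 13 fell.

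Calls were also counted by whether a window held the X-box arm. A window without this exact arm can hold another form of the X-box, and the part of RFX sites in the changes was not tested. Among 30 primary-cilium genes with a window, the 16 with the arm comprised 7 that rose and 5 that fell (median log2 change 0.07). Wdr35 is among these 5. The 14 without the arm comprised 7 that rose and 4 that fell (median 0.14). Over all genes tested with a window, 35.9% of those with the arm and 36.5% of those without it were higher, and 35.7% and 34.8% were lower. The 4 windows of primary-cilium genes named above with a match are printed with the arm in capitals: Nphp4 and Dync2h1 rose, Ift27 and B9d1 fell.
Nphp4 (chr4:152478131-152478160, plus strand, arm at 2 to 7 of its window 3): tggtgcatcccgGTTGCCagctgatgttgg
Dync2h1 (chr9:7177009-7177038, minus strand, arm at 37 to 42): catagcgacggagcttGGCAACtgctgagt
Ift27 (chr15:78174073-78174102, minus strand, arm at -9 to -4): gggttgatgatgGTTGCCaggagcctgttt
B9d1 (chr11:61505152-61505181, plus strand, arm at 21 to 26): cgagagcctcctGGCAACagcgcgcggcct

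**Figure D5:**
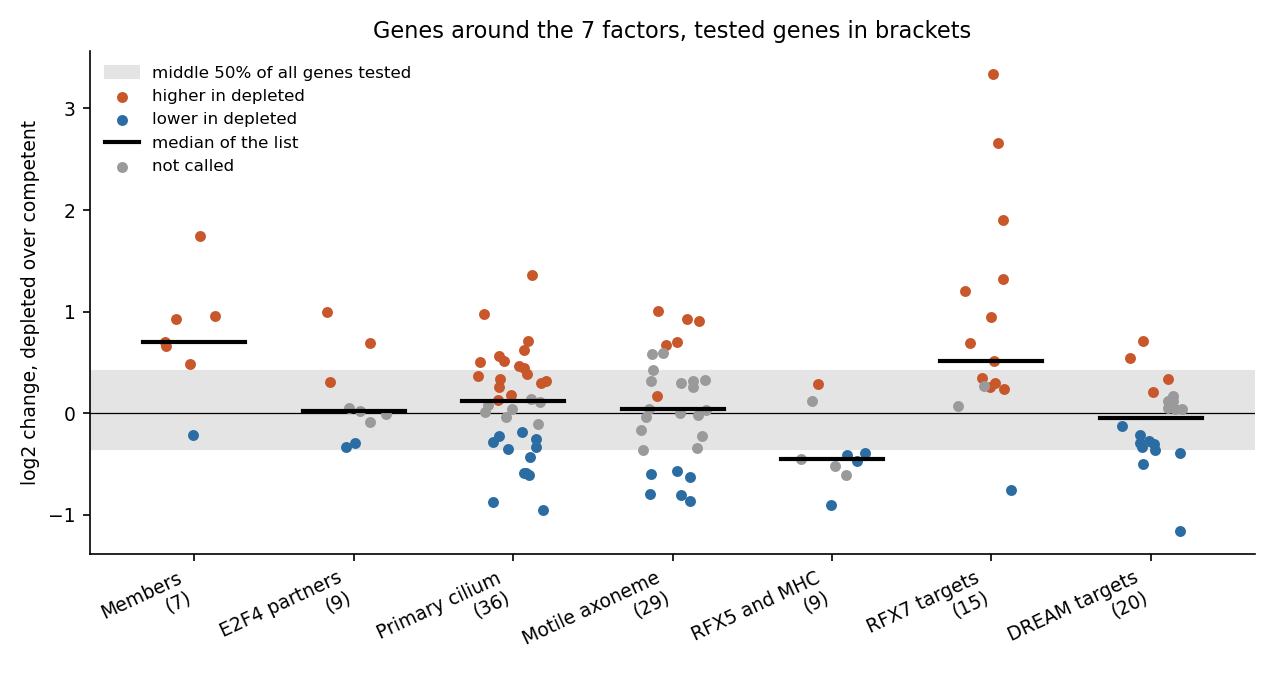
Each point is a tested gene, with its log2 change on the vertical axis and its list on the horizontal axis; colours mark genes called higher, called lower or not called, black bars are list medians, and the grey band holds the middle 50% of all genes tested. The medians run from -0.45 for the RFX5 and MHC list to 0.70 for the members.

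Among the genes tied to RFX5 that were tested, more fell than rose. RFX5 binds the X-box of MHC promoters together with RFXANK and RFXAP, and CIITA or NLRC5 then joins them. Rfxap was not called (log2 change 0.12, adjusted p = 0.148), but was called higher with the length trend removed (0.46, adjusted p = 6.21e-05). Rfxank rose slightly (log2 change 0.29, adjusted p = 0.0229), but the call was lost with library size alone (adjusted p = 0.184), with the length trend removed and with several samples left out, and an opposite-strand gene overlaps 33.8% of its exons. Ciita, the switch of class II expression, had 9 counts in competent and 28 in depleted cells. Nlrc5 had 20, 74 and 24 counts in competent and 24, 12 and 35 in depleted samples. It was not called (log2 change -0.52, adjusted p = 0.351). The class II genes themselves were near absent, with H2-Aa and H2-Oa at 0 and H2-Ab1 at 1 count in all, and Cd74, the invariant chain gene, fell from 1.15 ± 0.148 to 0.610 ± 0.12 CPM (adjusted p = 0.00625). The class I genes were abundant and fell, B2m 1.38-fold, H2-D1 1.33-fold and H2-K1 1.31-fold; H2-D1 and H2-K1 are near copies between which reads can be shared. B2m had 302, 312 and 269 CPM in competent and 197, 206 and 234 CPM in depleted samples. Of 16 genes listed, 9 were tested, of which 1 rose, 4 fell and 4 were not called, where 34.9% of all genes rose and 34.3% fell. The median log2 change of the 9 was -0.45, which is the value of a gene with few counts that was not called. With the length trend removed the median was -0.20, B2m was at -0.15 and H2-K1 at -0.20, and 4 genes were again called lower.

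Of 15 genes described as RFX7 targets, all tested, 12 rose, 1 fell and 2 were not called, where 34.9% of all genes rose, with a median log2 change of 0.51 (0.43 with the length trend removed and 0.38 with library size alone). Junb, an AP-1 subunit gene that growth factors and stress also induce, rose 10.1-fold. Pnrc1, a nuclear receptor coactivator gene, had 85.3, 85.5 and 79.7 CPM in competent and 496, 553 and 528 CPM in depleted samples, a 6.30-fold rise (adjusted p = 1.36e-13). Ddit4, which restrains mTORC1, rose 3.73-fold, the antiproliferative Tob1 2.50-fold and Cdkn2aip, a regulator of p53, 2.29-fold. Mxd4, which antagonises MYC, was the exception and fell 1.68-fold, from 179 ± 1.66 to 106 ± 0.932 CPM. Several of these genes have other known inducers, and the part of RFX7 in their change was not tested. This list, like the others, was chosen with earlier results of these data known, so its share beside that of all genes is a description.

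Around E2f4, its DNA-binding partner gene Tfdp1 fell. It had 121, 121 and 126 CPM in competent and 97.1, 97.6 and 98.2 CPM in depleted samples (1.26-fold lower, adjusted p = 5.49e-06), and Tfdp2, the other DP gene, was at a log2 change of 0.05 (adjusted p = 0.344). It was called lower once the length trend was taken out (-0.20, adjusted p = 0.00125). The pocket protein genes Rbl1 and Rbl2, encoding p107 and p130, were not called (log2 changes 0.03 and -0.09, adjusted p = 0.716 and 0.138). Both were called lower after the length correction (-0.14 and -0.26), and Rbl2 also with library size alone (-0.22) and upper-quartile scaling (-0.14). Rb1 rose (0.31), a call lost with the length trend removed (adjusted p = 0.0603). In the MuvB core of the DREAM complex, Lin52 rose 1.99-fold, from 3.78 ± 0.423 to 7.51 ± 0.76 CPM, Lin37 rose 1.61-fold and Rbbp4 fell by 0.29 on the log2 scale. Of the 9 partner genes tested, 3 rose, 2 fell and 4 were not called, where 34.9% of all genes rose and 34.3% fell. The median log2 change of the 9 was 0.03. It turned negative with library size alone (-0.10), upper-quartile scaling (-0.02) and the length trend removed (-0.14, with 2 genes higher and 5 lower).

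Of 20 cell cycle genes that DREAM represses, 4 rose, 10 fell and 6 were not called, where 34.9% of all genes rose and 34.3% fell. The number that fell was 7 at a threshold of 0.01 and 8 with the length trend removed. The calls of Mcm5 (log2 change -0.13) and Aurkb (-0.22) were lost under several alternatives. The median log2 change of the 20 was -0.05. It was -0.175 with library size alone, -0.10 with upper-quartile scaling and -0.08 without competent replicate 1. Ccne1, which encodes cyclin E1, had 5.90, 6.62 and 6.45 CPM in competent and 2.46, 2.62 and 3.34 CPM in depleted samples (2.23-fold lower, adjusted p = 4.37e-06). The mitotic cyclin genes Ccnb2, Ccnb1 and Ccna2 fell by 0.50, 0.39 and 0.34 on the log2 scale. The kinetochore motor gene Cenpe rose 1.64-fold, and Cdc25c and Aurka rose with log2 changes of 0.55 and 0.33. Cdc20 rose with 0.21, a call lost with library size alone.

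Over the 6 samples, the log2 CPM of Foxj1 was most like that of Synpo, Arih2 and Prpf40b (Pearson's r 0.9992, 0.9986 and 0.9984) among 10471 genes compared. The nearest gene was Pdgfb for Rfx1, Jrk for Rfx2, Rbm6 for Rfx3, Ankle2 for Rfx5, Tnrc6b for Rfx7 and Sypl for E2f4, each with r of 0.9989 or more. Since the samples form 2 separate groups, such values mostly restate the difference between the groups, and 20.8% of genes had an r over 0.95 with Foxj1.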

How the data were processed

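The authors deposited a table of unnormalized read counts per gene with 6 sample columns; WT columns were read as competent and KO columns as depleted by name and number, and 0 columns belonged to other samples. Per the labels' protocols, libraries were poly-A selected and directional. The submitters' processing notes name cutadapt 1.16, STAR 2.7.1a, featureCounts, DESeq2 1.34.0 and GRCm38; the annotation and the strand setting are not given in the sources used here. Symbols were found for 31976 and GENCODE M21 positions for 32009 of 32061 genes.

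Counts were fitted with edgeR 4.0.16 in R 4.3.3 (filterByExpr, TMM, glmQLFit and glmQLFTest, two-sided) on all 6 samples with the group as the only term; code was tested on simulated data. Fold changes are depleted over competent, and standard errors and intervals (95%) come from this fit. Floors of 3 counts cover counting error only. Transcript length is that of the GENCODE APPRIS principal transcript, or else of the longest basic one; its trend was removed by a loess curve per library (span 0.5). Chi-square per degree of freedom was 5.33 to 9.44 between samples of a group, more than counting error alone gives. Each was therefore counted once and not merged as repeat counts of the same library. This does not show that they are separate cultures or animals.

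The members and lists were chosen with earlier results of these data known. Named list genes are up to 5 called in each direction. They have the largest change and at least 10 counts in every sample of a group. Partners in a complex are named whatever their value. Cell type markers, Plk4, Nlrc5, Ift81, Ift88, Ift140 and Wdr35 were named after their values were seen. So were the genes at or near 0 counts and those with a call lost. Lin54 was not analysed here, and 1 gene that this rule names is not reported here. Alternatives were other scalings, DESeq2 1.42.0, limma-voom 3.58.1, other filters, a replicate block, each sample left out in turn, length correction and a threshold of 0.01.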

Additional observations from a re-analysis of the deposited data

How the results depend on the processing

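All 7 members kept their direction and their call under all 16 alternatives, which comprised DESeq2-style, upper-quartile and library-size scaling, DESeq2, limma-voom, 2 other filters, the replicate block, the length correction, a threshold of 0.01 and each of 6 samples left out. Keeping a call was common over all genes too. The main fit called 9576 of 13839 genes tested (69.2%). Of these 9576, 8061 (length correction) to 9558 (DESeq2-style scaling) kept call and direction under a given alternative. Genes called ranged from 8317 to 9816 against 9576, and from 8929 to 9333 with a sample left out. With a sample left out, log2 changes were 0.64 to 0.74 for Foxj1, 0.89 to 0.96 for Rfx1, 0.86 to 1.08 for Rfx2, 1.69 to 1.81 for Rfx3, 0.59 to 0.70 for Rfx5, 0.45 to 0.51 for Rfx7 and -0.23 to -0.20 for E2f4. With the replicate block 9526 genes and all 7 members were called, and Foxj1 was at 0.70, Rfx3 at 1.74 and E2f4 at -0.22. Over all genes tested, no pairing by number was seen. Deviations of same-numbered samples correlated at -0.028, 0.013 and -0.016, and 0 of 6 samples correlated best with its own number. With 3 samples per group this is a weak check, and whether same-numbered samples share an origin is not stated. Among list genes, the calls of Birc5 and Ift46 were lost and their direction turned with the length trend removed (log2 changes 0.04 and -0.0077). Depth limits the genes with under 10 counts, such as Gmnc, Mcidas and Rfx4, for which a change was not detectable.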

Other observations

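Other short motifs were counted in the same promoter windows, on both strands, as a description. The forkhead motif GTAAACA occurred in 4 of 43 motile-cilium genes (9.3%), in 0 of the 5 members with a window and in 4.05% of all genes. TTTGAA, the cell cycle homology region that DREAM uses, occurred in 7 of 15 cell cycle genes of the DREAM list (46.7%) and in 20.2% of all genes. The E2F motif TTTCCCGC occurred in 1 of these 15 genes and in 1.24% of all genes, and TTTGGCGC in 1 and in 0.585%. The inverted X-box pair (GTNNCC, NN and GGNNAC in a row, N being any base) occurred in 8 of 43 motile-cilium genes (18.6%), 6 of 30 primary-cilium genes (20%) and 2.16% of all genes; its matches can overlap those of the arm.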
